A study of Mus musculus with 8 samples.

Results

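Kainate receptors are glutamate-gated ion channels built from the 5 subunits encoded by Grik1, Grik2, Grik3, Grik4 and Grik5. The subunits were taken by gene symbol and are 5 of the 19505 named genes on the array. Each was read by 1 probe set, a group of probes summarised to 1 value, and all 5 passed the filter on low values. Expression was measured on 8 Affymetrix arrays, from total RNA of the hippocampus and the cerebral cortex, dissected from male mice, 12 weeks old. Exposed mice received clothianidin, a neonicotinoid insecticide that acts on nicotinic acetylcholine receptors, at 50 mg/kg/day for 2 weeks. Control mice received the vehicle, which held 1% DMSO, over the same 2 weeks. Each of the 4 groups (cortex control, cortex exposed, hippocampus control and hippocampus exposed) held 2 arrays, numbered 1 and 6 in control groups and 3 and 6 in exposed groups. The strain was not given, and the labels do not say that the arrays of a group came from separate animals. The p-values therefore measure only the spread between these arrays, which may be technical.

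Kainate receptors are tetramers that act on both sides of the synapse: postsynaptically they carry slow excitatory currents, and presynaptically they tune the release of glutamate and GABA. The products of Grik1, Grik2 and Grik3 (GluK1, GluK2 and GluK3) form channels on their own, whereas those of Grik4 and Grik5 (GluK4 and GluK5) bind agonist with high affinity but need one of the former to make a working channel. In the hippocampus these receptors are best known from the synapses between mossy fibres, the axons of dentate granule cells, and CA3 pyramidal cells.

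Grik2, Grik3 and Grik4 are the subunits whose difference between the tissues passed the test threshold given below, and their promoters are shown for that reason. The sequences are RefSeq's, from build GRCm38.p6, and run from 250 bases before to 50 bases after the gene's start on the gene's own strand. The Grik2 promoter lies at chr10:49788705-49789004 (minus strand), that of Grik3 at chr4:125490446-125490745 (plus strand) and that of Grik4 at chr9:42944322-42944621 (minus strand). Capitals mark the GC box GGGCGG, the core motif bound by Sp-family factors, on either strand.
Grik2: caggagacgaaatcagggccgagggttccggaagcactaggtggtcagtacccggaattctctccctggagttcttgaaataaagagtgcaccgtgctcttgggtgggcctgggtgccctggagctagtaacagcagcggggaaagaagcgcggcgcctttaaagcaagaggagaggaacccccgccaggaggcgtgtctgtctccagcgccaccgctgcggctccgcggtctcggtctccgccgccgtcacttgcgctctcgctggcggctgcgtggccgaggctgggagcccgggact
Grik3: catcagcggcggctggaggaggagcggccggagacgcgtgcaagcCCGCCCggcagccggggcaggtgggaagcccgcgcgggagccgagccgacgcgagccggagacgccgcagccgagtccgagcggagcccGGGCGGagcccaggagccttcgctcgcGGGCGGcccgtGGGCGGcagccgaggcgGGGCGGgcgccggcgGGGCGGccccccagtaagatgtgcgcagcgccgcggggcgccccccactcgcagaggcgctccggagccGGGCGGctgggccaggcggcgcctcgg
Grik4: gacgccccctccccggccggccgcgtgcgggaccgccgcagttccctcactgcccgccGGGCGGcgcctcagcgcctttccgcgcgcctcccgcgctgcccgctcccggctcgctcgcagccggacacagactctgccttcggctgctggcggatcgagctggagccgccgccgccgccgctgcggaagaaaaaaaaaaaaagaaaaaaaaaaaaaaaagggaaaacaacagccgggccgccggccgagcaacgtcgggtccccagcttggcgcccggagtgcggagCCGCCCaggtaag
The Grik3 promoter held 7 GC boxes, the Grik4 promoter 2 and the Grik2 promoter 0, and 35.7% of 32851 mouse promoters of 300 bases held at least 1. The Grik3 window was 82% G and C with 50 CpG dinucleotides. The Grik4 window was 70% G and C with 42 CpG, and the Grik2 window 64.7% with 26 CpG. The median of all promoters was 52.7% and 7 CpG, and the upper decile was 69.7% and 31 CpG. The E-box CANNTG, found in 72.3% of all promoters, was present once each in the Grik2 and Grik3 windows and not in that of Grik4. Neither the cyclic AMP response element TGACGTCA (1.79% of promoters) nor the TATA box TATAAA (13.6%) occurred in any of the 3 on either strand. No GC box overlapped another motif. The Grik5 promoter, at chr7:25072320-25072619 (minus strand), was 72% G and C, had 10 CpG and held 2 GC boxes. These matches describe the letters only.

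Values are log2 expression from robust multi-array averaging (RMA), so a difference of 1 is a doubling. Comparisons used limma's moderated test on 14804 probe sets with Benjamini-Hochberg adjustment, and a probe set was called when its adjusted p was under 0.05. A probe's level is compared with its own level in other arrays and never with that of another probe set. Array medians ranged from 5.21 to 5.4. The tissue labels were checked on markers averaged over both arms, a comparison in which 31.3% of all 14804 probe sets were called. Of 9 markers of cortical neurons 7 were called lower in hippocampus and 1 higher (Bcl11b, by 3.38), with Lamp5 lower by 4.74 (log2 difference -4.74). Of 6 dentate granule cell markers 3 were called higher in hippocampus and 1 lower, with Prox1 higher by 4.93. Of 5 CA1 markers 4 were called higher and 1 lower, and of 6 CA2 and CA3 markers 5 were called higher and 1 lower (Pcp4, log2 difference -1.87). Hippocampus control 1 and cortex control 6 had the highest choroid plexus markers of their tissues, with mean log2 values over 11 genes of 10.15 and 5.47 against 4.84 and 3.77 in the other control array of the tissue. Without both arrays each tissue kept 1 control array, so the tissue difference in control arrays was left with no control replicate. Its size moved from 1.23 to 1.85 for Grik2, from -1.67 to -2.03 for Grik3 and from 2.04 to 2.03 for Grik4.

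Kainate subunits differed between the tissues, and the direction depended on the subunit. In control arrays limma called Grik2 and Grik4 higher and Grik3 lower in hippocampus than in cortex, 3 of 5 subunits where 17.7% of all 14804 probe sets were called. In exposed arrays the same 3 subunits were called in the same directions, against 14.5% of all probe sets. Averaged over both arms the count was again 3 of 5 against 31.3%. Grik1 and Grik5 were not called in any of these comparisons. The median difference of the 5 subunits, hippocampus minus cortex, was 0.4 on the log2 scale when averaged over the arms, against 0.11 over all probe sets. Arrays of the tissues did not overlap for 4 of 5 subunits in control arrays and for 4 of 5 in exposed arrays, where 59.2% and 57% of all probe sets had no overlap. With all 4 arrays of a tissue set against all 4 of the other, 4 of 5 subunits and 30.5% of all probe sets had none. Centring each array on its median, which moves every probe set by the same amount, shifted the median tissue difference over all probe sets by -0.15, and the share of calls that were higher in hippocampus went from 62.2% to 44.5% (50.2% after quantile normalization). Within arms that share went from 56.9% to 41% in control and from 63.9% to 49.1% in exposed arrays. The averaged differences of the 3 called subunits after centring were 1.08 for Grik2, -1.74 for Grik3 and 2.04 for Grik4, all still called.

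**Figure D1:**
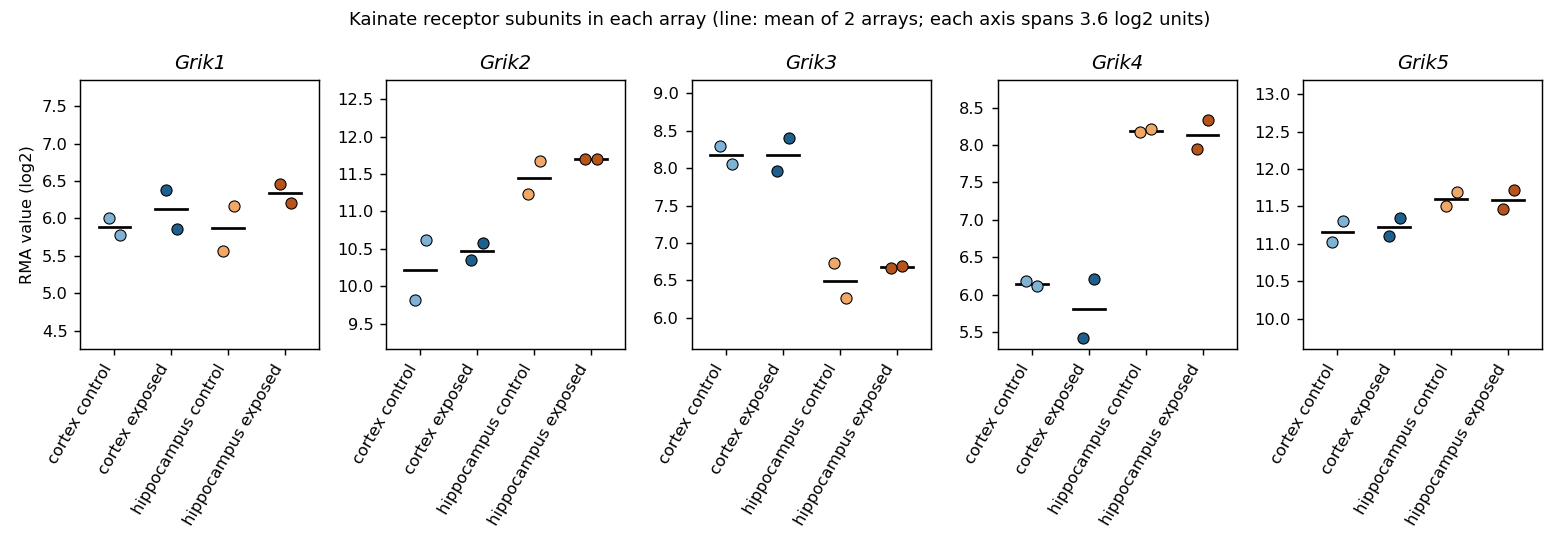
Log2 expression (RMA) of the 5 kainate receptor subunits in each of the 8 arrays, 1 panel per gene, with a point per array and a bar at each group's mean of 2 arrays. Grik4 and Grik2 arrays of hippocampus lie above all cortex arrays, Grik3 arrays of hippocampus lie below all cortex arrays, and the Grik1 groups overlap between tissues.

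Grik4, which encodes the high-affinity subunit GluK4, known as a subunit of CA3 pyramidal cells, differed most between the tissues. Its log2 values were 6.18 and 6.11 in cortex control, 5.42 and 6.21 in cortex exposed, 8.17 and 8.21 in hippocampus control, and 7.95 and 8.33 in hippocampus exposed. Every hippocampus array was above every cortex array, and the lowest value was that of cortex exposed 3. The level was 2.04 higher in hippocampus in control arrays (SE 0.311, 95% interval 1.37 to 2.72, adjusted p = 0.00078 by limma), a 4.13-fold difference. In exposed arrays it was 2.33 higher (SE 0.311, 1.65 to 3.00, adjusted p = 0.00044 by limma), a 5.01-fold difference. Averaged over the arms the difference was 2.18 (adjusted p = 1.7e-05 by limma), and 2.2% of probe sets had one at least as large. The group means, highest first, were 8.19 ± 0.0283 (SD, n = 2) in hippocampus control, 8.14 ± 0.269 in hippocampus exposed, 6.14 ± 0.0495 in cortex control and 5.82 ± 0.559 in cortex exposed. Neighbours in that order overlapped within each tissue, and the gap of 2.00 between hippocampus exposed and cortex control was the only one without overlap.

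Grik3, which encodes GluK3, a subunit of low agonist affinity that forms channels on its own, ran the other way. Its values were 8.29 and 8.05 in cortex control, 7.96 and 8.4 in cortex exposed, 6.73 and 6.26 in hippocampus control, and 6.67 and 6.69 in hippocampus exposed. All cortex arrays were above all hippocampus arrays. In control arrays the hippocampus was lower (log2 difference -1.67, SE 0.288, 95% interval -2.3 to -1.05, adjusted p = 0.0018 by limma), with cortex at 3.19-fold the hippocampus level. In exposed arrays the difference was -1.5 (SE 0.288, -2.13 to -0.873, adjusted p = 0.0046 by limma), a 2.83-fold difference. Without cortex exposed 6 it was -1.28 and missed the threshold (adjusted p = 0.051 by limma). The average over arms was -1.59 (adjusted p = 0.00011 by limma), a size that 4.73% of probe sets reached. Group means in order were 8.18 ± 0.311 (SD, n = 2) in cortex exposed, 8.17 ± 0.17 in cortex control, 6.68 ± 0.0141 in hippocampus exposed and 6.5 ± 0.332 in hippocampus control. The 2 arms overlapped within each tissue, and the step of 1.49 from cortex control to hippocampus exposed separated the tissues.

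Grik2 encodes GluK2, the pore-forming subunit of kainate receptors at mossy fibre synapses. Its values were 9.82 and 10.62 in cortex control, 10.35 and 10.58 in cortex exposed, 11.23 and 11.67 in hippocampus control, and 11.7 in both hippocampus exposed arrays. Again the tissues did not overlap, and cortex control 1 was the lowest array. The hippocampus was higher by 1.23 in control arrays (SE 0.29, 95% interval 0.598 to 1.86, adjusted p = 0.012 by limma), a 2.35-fold difference. The difference in exposed arrays was 1.23 as well (SE 0.29, 0.603 to 1.87, adjusted p = 0.014 by limma). These calls within single arms rested on few arrays. In control arrays the call was lost without cortex control 1 (0.83, adjusted p = 0.14 by limma) and without hippocampus control 6 (1.01, adjusted p = 0.078). In exposed arrays it was lost without cortex exposed 3 (1.12, adjusted p = 0.099), without hippocampus exposed 3 (1.24, adjusted p = 0.067) and without hippocampus exposed 6 (1.24, adjusted p = 0.072). The average over both arms, 1.23 (adjusted p = 0.00078 by limma), stayed past the threshold under every alternative run, with adjusted p from 5.1e-05 to 0.0049. A difference of that size was reached by 8.6% of probe sets. The means ran from 11.7 ± 0 (SD, n = 2, values given to 2 decimals) in hippocampus exposed through 11.45 ± 0.311 in hippocampus control and 10.46 ± 0.163 in cortex exposed to 10.22 ± 0.566 in cortex control. Only the cortex groups overlapped.

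Grik5, which encodes GluK5, the widely expressed high-affinity subunit that commonly joins GluK2, had the smallest span of group means, 0.435. Its values were 11.02 and 11.3 in cortex control, 11.1 and 11.35 in cortex exposed, 11.5 and 11.69 in hippocampus control, and 11.46 and 11.72 in hippocampus exposed. Every hippocampus array was above every cortex array, if narrowly. The averaged difference was 0.4 (SE 0.166, 95% interval 0.037 to 0.763) and missed the threshold (adjusted p = 0.087 by limma), and 49.5% of probe sets had one as large. The means in order were 11.6 ± 0.134 (SD, n = 2) in hippocampus control, 11.59 ± 0.184 in hippocampus exposed, 11.22 ± 0.177 in cortex exposed and 11.16 ± 0.198 in cortex control, and the arms overlapped within each tissue.

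Grik1 encodes GluK1, a subunit known mainly from GABAergic interneurons in the hippocampus. Its values were 6 and 5.78 in cortex control, 6.38 and 5.86 in cortex exposed, 5.57 and 6.17 in hippocampus control, and 6.46 and 6.21 in hippocampus exposed. The tissues overlapped, and the lowest array was hippocampus control 1. The averaged difference was 0.0975 (SE 0.224, 95% interval -0.392 to 0.587, adjusted p = 0.77 by limma), and 86.3% of probe sets had one as large. The interval reaches 0.587 on the hippocampus side, so equal levels are not shown, and the sign turned under both other scalings (-0.0469 and -0.0525). Its group means of 6.33 ± 0.177 (SD, n = 2) in hippocampus exposed, 6.12 ± 0.368 in cortex exposed, 5.89 ± 0.156 in cortex control and 5.87 ± 0.424 in hippocampus control each overlapped the next.

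Arrays of 1 arm and number were also set against each other across the tissues. The hippocampus array exceeded the cortex array by 1.99 to 2.53 for Grik4, by 1.05 to 1.41 for Grik2 and by 0.36 to 0.48 for Grik5 in all 4 such pairs. For Grik3 the difference was -1.29 to -1.79 in all 4. For Grik1 it was negative in 1 pair (-0.43) and positive in 3 (0.08 to 0.39). The tissues did not overlap for Grik2, Grik3, Grik4 and Grik5, so the sign in each of their pairs was fixed in advance. The numbers are not shown to pair the arrays. In bulk tissue, fewer cells of a type and less RNA per cell cannot be told apart. Markers of several cell types also differed between the tissues, where 31.3% of all probe sets were called. Of 9 GABAergic interneuron markers 5 were called lower and 1 higher in hippocampus, with a median difference of -1.37 and a mean log2 level over the list of 10.15 to 10.44 in cortex and 8.86 to 9.62 in hippocampus. The mean over the 6 CA2 and CA3 markers was 8.19 to 8.56 in cortex and 9.55 to 9.94 in hippocampus, while the log2 of their summed linear values was 14.88 to 15.71 and 13.76 to 14.44. Of 4 general neuron markers 2 were called lower (median -0.342). Astrocyte markers had 3 called higher and 1 lower of 6 (median 0.841), meningeal and fibroblast markers 3 higher of 6 (0.56) and thalamic neuron markers 2 higher and 1 lower of 4 (0.839). Choroid plexus markers had 3 called higher of 9 tested (1.77) and ependymal markers 2 higher of 3 (1.19). Hippocampus control 1 had the highest mean level of both lists. The part of these markers in the subunits' values was not tested.

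**Figure D2:**
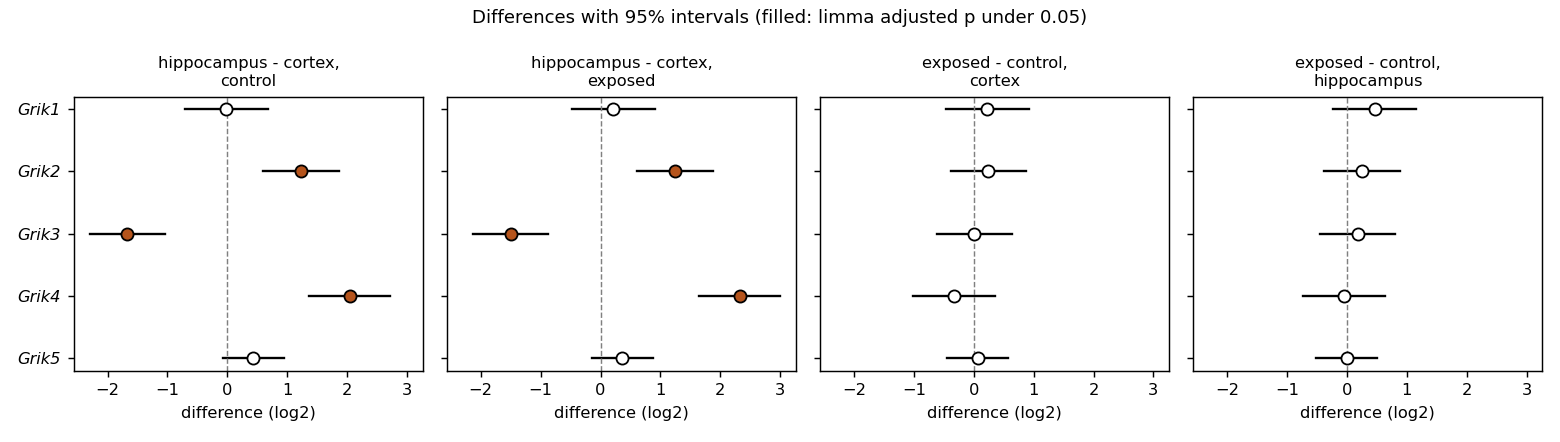
Differences in log2 expression of the 5 subunits with 95% intervals from limma, for hippocampus minus cortex within each arm and for exposed minus control within each tissue; filled points were called at an adjusted p under 0.05. The exposure intervals of all 5 subunits include 0 in both tissues, and the intervals for Grik2, Grik3 and Grik4 between tissues do not in either arm.

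Clothianidin exposure was followed by no called change of any kainate subunit. In cortex limma called 0 of 5 subunits, 0 of 5 had an unadjusted p under 0.05, and 0.00675% of all probe sets were called (6.18% had an unadjusted p under 0.05). In hippocampus the counts were again 0 of 5 and 0 of 5, against 0.00675% called and 5.81% at an unadjusted p under 0.05. The median exposure difference of the 5 subunits was 0.065 in cortex and 0.185 in hippocampus, where all probe sets had medians of -0.025 and 0.005. In cortex the exposed and control arrays overlapped for all 5 subunits, while 38.5% of all probe sets had no overlap.

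In hippocampus the exposed arrays lay above the control arrays for 2 of 5 subunits, Grik1 and Grik2, and 30.7% of all probe sets had arms that did not overlap. The Grik1 difference there was 0.465 (SE 0.317, 95% interval -0.227 to 1.16, adjusted p = 0.93 by limma). Its size rested on the control arrays, at 0.165 without hippocampus control 1, the array high in choroid plexus markers, and 0.765 without hippocampus control 6. In cortex Grik1 differed by 0.23 (SE 0.317, -0.462 to 0.922, adjusted p = 0.94). The exposed minus control difference of Grik2 was 0.25 in hippocampus (SE 0.29, -0.382 to 0.882, adjusted p = 0.97) and 0.245 in cortex (SE 0.29, -0.387 to 0.877, adjusted p = 0.93). The Grik2 value in hippocampus was 0.03 without hippocampus control 1 and 0.47 without hippocampus control 6. None of these 4 differences passed the threshold.

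For Grik4 the exposed minus control difference was -0.33 in cortex (SE 0.311, 95% interval -1.01 to 0.349, adjusted p = 0.89 by limma) and -0.05 in hippocampus (-0.729 to 0.629, adjusted p = 0.99). The cortex value rested on exposed array 3, and without it the difference was 0.065. For Grik3 the values were 0.01 in cortex (-0.617 to 0.637) and 0.185 in hippocampus (-0.442 to 0.812). The hippocampus value of Grik3 was 0.42 without hippocampus control 1 and -0.05 without hippocampus control 6. For Grik5 they were 0.065 in cortex (-0.448 to 0.578) and -0.005 in hippocampus (-0.518 to 0.508). Grik5 had the narrowest intervals of the 5 subunits.

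The exposure difference was also compared between the tissues, as hippocampus minus cortex. limma called 0 of 5 subunits, 0 of 5 had an unadjusted p under 0.05, and 0% of all probe sets were called (3.45% at an unadjusted p under 0.05). The value was 0.235 for Grik1 (95% interval -0.744 to 1.21), 0.005 for Grik2 (-0.889 to 0.899), 0.175 for Grik3 (-0.712 to 1.06), 0.28 for Grik4 (-0.68 to 1.24) and -0.07 for Grik5 (-0.796 to 0.656), each with an adjusted p of 1. These intervals, from 2 arrays a group, were the widest of all comparisons. Averaged over both tissues, on means of arrays with 1 arm and number, 0 of 5 subunits were called and 0 of 5 had an unadjusted p under 0.05, against 0.00675% and 5.97% of all probe sets. The arms did not overlap for 1 of 5 subunits, Grik1 (0.347, 95% interval -0.175 to 0.87, adjusted p = 0.86 by limma), and for 35.1% of all probe sets. The other 4 averages were 0.247 for Grik2, 0.0975 for Grik3, -0.19 for Grik4 and 0.03 for Grik5.

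Proteins that bind, traffic, edit or place kainate receptors were read from a list of 23 genes, of which 19 had a named probe set and were tested. Averaged over both arms, limma called 7 higher and 5 lower in hippocampus, 12 of 19 where 31.3% of all probe sets were called. The median difference over the 19 was 0.143, against 0.11 over all probe sets. Under the alternatives run, 8 to 13 of the 19 were called, with 8 both without cortex control 6 and without the arrays high in choroid plexus markers. C1ql2 and C1ql3 are secreted by mossy fibres and gather kainate receptors on CA3 cells. C1ql2 was 6.76 and 6.85 in cortex control, 6.74 and 6.78 in cortex exposed, 11.91 and 11.73 in hippocampus control, and 11.79 and 11.68 in hippocampus exposed. Its averaged difference was 4.99 (SE 0.167, adjusted p = 6.3e-09 by limma), and it is also one of the 6 dentate granule cell markers. C1ql3 was higher by 1.46 (SE 0.15, adjusted p = 2e-05), with hippocampus arrays at 13.56 to 13.95 and cortex arrays at 12.13 to 12.43.

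Neto1 and Neto2 encode the auxiliary subunits of kainate receptors, which slow their kinetics and help to place them at synapses. Neto1 was 11.92 and 12.05 in cortex control, 11.62 and 12.13 in cortex exposed, 13.76 and 13.61 in hippocampus control, and 13.35 and 14.1 in hippocampus exposed. It was higher in hippocampus by 1.77 on average (SE 0.196, 95% interval 1.35 to 2.2, adjusted p = 3.5e-05 by limma), by 1.7 in control and by 1.85 in exposed arrays. Neto2 ran the other way, at 12.25 and 12.18 in cortex control, 12.08 and 12.19 in cortex exposed, 11.87 and 11.14 in hippocampus control, and 11.79 and 11.72 in hippocampus exposed. Its averaged difference was -0.545 (SE 0.183, -0.943 to -0.147, adjusted p = 0.04 by limma). That call was fragile: it was lost in 8 of 16 alternatives, among them leaving out any 1 array other than hippocampus control 1, with adjusted p from 0.008 to 0.14. Within single arms Neto2 was not called (-0.71, adjusted p = 0.08 in control arrays and -0.38, adjusted p = 0.36 in exposed arrays).

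Dlg1, a membrane-associated scaffold of glutamate receptors, was lower in hippocampus (-1.44, SE 0.166, adjusted p = 5.1e-05 by limma), with cortex arrays at 11.42 to 12.06 and hippocampus arrays at 10.13 to 10.3. The other called partners were Grip1, Prkca, Cdh2 and Dlg3, which were higher, and Nrxn3, Pick1 and Adar, which were lower. Grip1 and Pick1 are PDZ-domain proteins that bind the receptors' tails, and their directions were opposite (1.5 and -0.645). Adar and Adarb1 encode enzymes that edit RNA, and Adarb1, which edits kainate subunit transcripts, was not called (-0.198).

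**Figure D3:**
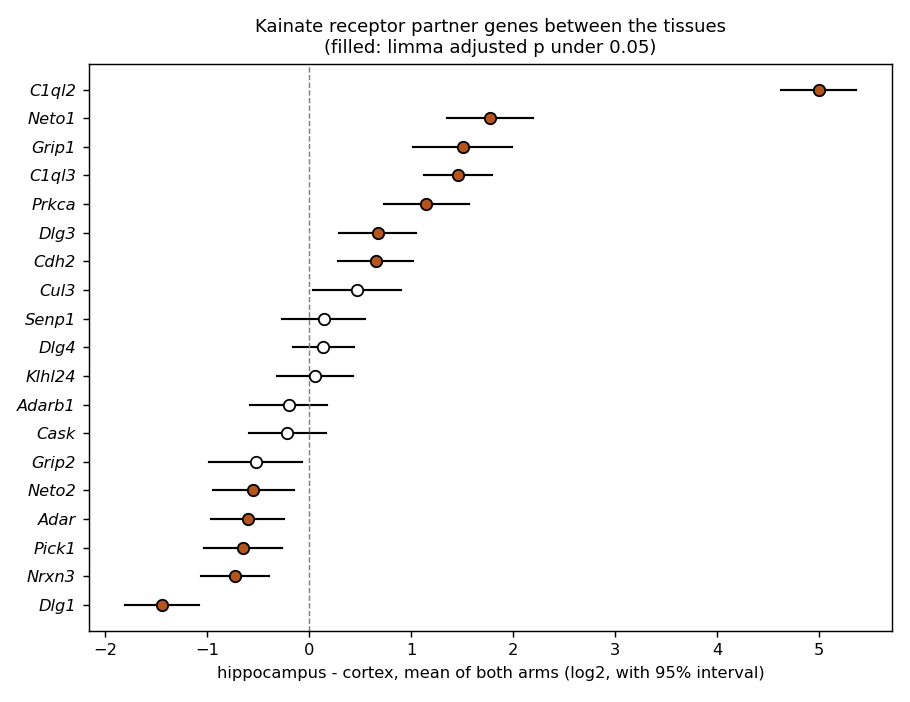
Hippocampus minus cortex difference in log2 expression, averaged over both arms, for the kainate receptor partners tested, with 95% intervals from limma. C1ql2 (4.99), Neto1 (1.77) and Grip1 (1.505) lie farthest to the hippocampus side, and Dlg1 (-1.44) and Nrxn3 (-0.725) farthest to the cortex side.

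After exposure 0 of the 19 partners were called by limma in either tissue, and 0.00675% of all probe sets were called in each. An unadjusted p under 0.05 was found for 0 of 19 in cortex and 1 of 19 in hippocampus, against 6.18% and 5.81% of all probe sets. In cortex 10 of 19 values were above and 9 below 0 (median 0.025), and in hippocampus 9 were above and 10 below (median -0.005). Neto1 differed by -0.11 in cortex (SE 0.277, adjusted p = 0.98) and by 0.04 in hippocampus (SE 0.277, adjusted p = 1). Neto2 differed by -0.08 (SE 0.258, adjusted p = 0.99) and by 0.25 (SE 0.258, adjusted p = 0.96). The smallest unadjusted p among the partners belonged in cortex to Senp1, a protease that removes SUMO from proteins (0.5, SE 0.264, adjusted p = 0.81), and in hippocampus to Grip1 (0.815, SE 0.312, adjusted p = 0.82).

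The other ionotropic glutamate receptor subunits, of the AMPA, NMDA and delta families, gave a comparison within the same superfamily. Of 13 genes 11 had a named probe set and 10 were tested. Averaged over both arms 3 were called higher in hippocampus (Gria1, Grin2a and Gria2) and 1 lower (Gria4), 4 of 10 where 31.3% of all probe sets were called. The median difference was 0.275, against 0.11 over all probe sets. Gria1, an AMPA receptor subunit of pyramidal cells, was at 17.52 to 17.62 in hippocampus and 13.84 to 14.55 in cortex, a difference of 3.32 (SE 0.165, adjusted p = 5.5e-08 by limma). Gria4, an AMPA subunit known from interneurons, differed by -1.16 (SE 0.176, adjusted p = 0.00039). Gria2 (0.56, adjusted p = 0.033) lost its call in 7 of 16 alternatives. After exposure 0 of 10 were called in either tissue by limma, against 0.00675% of all probe sets in each. The unadjusted p was under 0.05 for 0 of 10 in cortex and 2 of 10 in hippocampus. Over all probe sets the shares were 6.18% and 5.81%. The 2 in hippocampus were Grin2b (0.73, SE 0.296, adjusted p = 0.84 by limma) and Grin2a (0.62, SE 0.281, adjusted p = 0.85 by limma). In cortex Grin2b differed by 0.54 and Grin2a by 0.485 (adjusted p = 0.81 by limma for each). In each tissue 6 of the 10 differences were above 0 and 4 below. The exposure differences had medians of 0.128 in cortex and 0.172 in hippocampus.

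Genes most like each subunit across the 8 arrays were found for the 3 subunits whose group means spanned at least 1 log2 unit. Likeness was the root mean square difference between mean-centred log2 values, and the nearest 3 named probe sets are given. For Grik2 these were Ppie (0.132), Rras2 (0.152) and Zfp518b (0.153), with hippocampus minus cortex differences of 1.13, 1.19 and 1.25. For Grik3 they were Id2 (0.104), Thrb (0.11) and Scrn1 (0.144), with differences of -1.64, -1.73 and -1.57. Id2 encodes an inhibitor of basic helix-loop-helix factors and Thrb a thyroid hormone receptor. For Grik4 they were Dock11 (0.18), Lats2 (0.187) and Slit3 (0.195), with differences of 2.36, 2.24 and 2.31. These lists describe the 8 arrays, which share their 2 tissues, and carry no test.

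**Figure D4:**
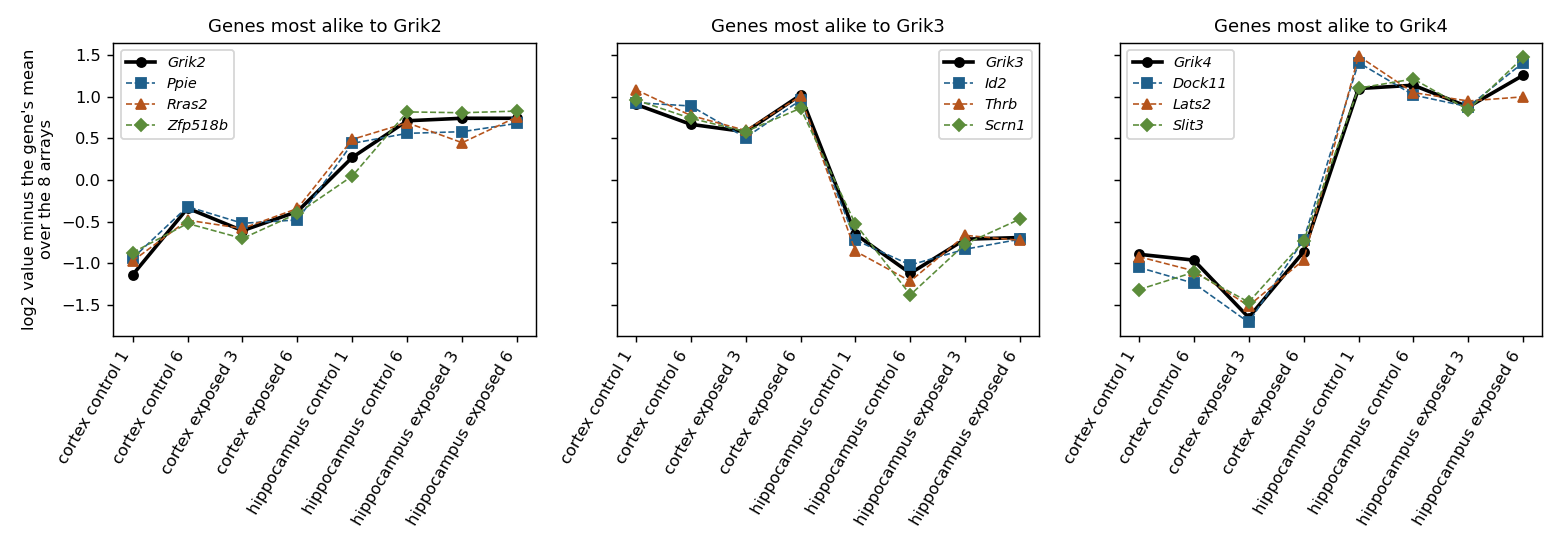
Mean-centred log2 expression over the 8 arrays, in panels for Grik2, Grik3 and Grik4, each with its 3 most alike genes; lines only join the arrays of a gene. In each panel the step between cortex and hippocampus arrays is the main feature, upward for Grik2 and Grik4 and downward for Grik3.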

How the data were processed

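The deposited table holds RMA-normalized log2 values per probe set, made by the authors per the submitters' processing notes. The RMA version, and whether it was run on the 8 arrays jointly, is not stated in the labels; the log base was taken from the range of the values, 1.59 to 19.93. Per the labels' protocols, 250 ng of RNA with an integrity number above 7.0 was labelled. Probe sets with 1 gene symbol in GEO's platform annotation numbered 19572 of 22206; all 19572 matched RefSeq (GRCm38.p6) by Entrez identifier. The lowest 33.3% by mean (below 3.937) were left out, leaving 14804.

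limma 3.58.1 under R 4.3.3 fitted 1 mean per group over the 8 arrays (lmFit; eBayes, trended variance) for 7 two-sided comparisons, each adjusted over all 14804. Exposure averaged over tissues used 4 means of arrays sharing arm and number. Scripts were tested on simulated data. The members, lists and naming rule were chosen with earlier results of these data known: all 5 subunits, Neto1, Neto2 and up to 4 list members with the smallest p are named; others called were named after their values were seen. Alternatives covered the filter, scaling, variance model, replicate block and left-out arrays.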

Additional observations from a re-analysis of the deposited data

Results flagged for a closer look

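Adar, which encodes an RNA-editing enzyme, had exposed arrays on opposite sides of the controls in the tissues. Arms without overlap, in either direction, were common: 38.5% of all probe sets in cortex and 30.7% in hippocampus had them. In cortex the exposed arrays (12.1 and 12.17) were both below the controls (12.23 and 12.23), and in hippocampus the exposed arrays (11.48 and 11.97) were both above the controls (11.42 and 11.47). The exposure difference in hippocampus minus that in cortex was 0.375 on the log2 scale (SE 0.328, 95% interval -0.34 to 1.09), and limma's test of it did not pass (adjusted p = 1). Without hippocampus exposed 6 the value was 0.13.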

How the results depend on the processing

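Each result was recomputed with no filter, a stricter filter, quantile normalization, centring on array medians, no variance trend, array weights, only the groups compared, a replicate block, each array left out, and both arrays high in Ttr left out (not possible for the exposure average, which then has no control). Of 580 values over 35 subunit comparisons 526 kept direction and side of the threshold; 6 lost a call, all given above, 1 gained one and 47 changed sign, none of them called. Exposure counts stayed at 0 of 5, tissue counts at 2 to 4 of 5. Signs turned for Grik3 in cortex exposure (-0.11 without the arrays high in Ttr), Grik5 in hippocampus exposure (0.01 centred), Grik2 in the difference between tissues (-0.06 quantile, -0.615 without the Ttr arrays), Grik1 in control tissue (0.17 without them) and averaged tissue (-0.0469 quantile, -0.0525 centred), and Neto2 in cortex exposure (0.0156 quantile). With one array left out, cortex exposure ran from -0.03 to 0.49 for Grik1, -0.155 to 0.645 for Grik2, -0.21 to 0.23 for Grik3, -0.725 to 0.065 for Grik4, -0.075 to 0.205 for Grik5 and -0.365 to 0.145 for Neto1; hippocampus exposure from 0.165 to 0.765 for Grik1, 0.03 to 0.47 for Grik2, -0.05 to 0.42 for Grik3, -0.24 to 0.14 for Grik4, -0.135 to 0.125 for Grik5, -0.335 to 0.415 for Neto1 and -0.115 to 0.615 for Neto2. The difference between tissues ran from -0.065 to 0.535 for Grik1, -0.395 to 0.405 for Grik2, -0.06 to 0.41 for Grik3, -0.115 to 0.675 for Grik4 and -0.21 to 0.07 for Grik5. The exposure average ran from 0.155 to 0.54 for Grik1, -0.0625 to 0.557 for Grik2, -0.08 to 0.275 for Grik3, -0.483 to 0.102 for Grik4 and -0.0975 to 0.157 for Grik5. For that average, leaving out an array also dropped the array of the same arm and number in the other tissue. The arm was then left with 1 mean. Grik1 between tissues ran from -0.32 to 0.28 in control, -0.045 to 0.475 in exposed arrays and -0.0525 to 0.248 averaged. The cause of these changes was not tested.

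With the replicate block, 4 of 5 subunits were called between tissues on average, Grik5 being added (0.4, adjusted p = 0.041). Deviations of same-numbered arrays correlated at -0.000881 in control and 0.276 in exposed arrays, so the numbers are not shown to pair them; the block changed no other subunit call. Over all probe sets, calls in hippocampus exposure ran from 0 to 53, the most without hippocampus control 6 (1 with all arrays), and in the difference between tissues from 0 to 30; tissue calls ran from 1143 to 3433 in control, 1073 to 2835 in exposed arrays and 3226 to 5502 averaged. The 2 arrays a group limit every interval.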
